A study of Mus musculus with 6 samples.

Results

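The 10 genes described here encode nonfibrillar collagen chains: Col6a1, Col6a2, Col6a3, Col8a1, Col12a1, Col13a1, Col14a1, Col15a1, Col16a1 and Col18a1. They were chosen by gene name, and all 10 were found among the 55298 genes of the deposited table. They were measured in apCAFs, tumour fibroblasts with surface MHC class II (libraries 1, 2 and 3), and set against nonapCAFs, tumour fibroblasts without it (libraries 4, 5 and 6). All 6 libraries came from orthotopic lung tumours of wild-type C57BL/6 mice more than 8 weeks old, and the labels name no treatment or other allele for either group. The design text gives 3 experiments, each on pooled tumours from which both populations were sorted at the same time, so p-values measure only the spread between such pools. Both were gated as large cells carrying PDPL (so spelled in the labels) and PDGFRa, and lacking mCherry, EPCAM, CD31 and CD45.

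Nonfibrillar collagens do not build the striped fibres formed by collagens I, III and V. Collagen VI forms beaded microfilaments around cells, from a trimer of the products of Col6a1, Col6a2 and Col6a3. Collagens XII, XIV and XVI belong to the fibril-associated group, which sits on fibre surfaces. Collagens XV and XVIII lie in the zone around basement membranes and carry many sugar side chains, collagen VIII makes sheet-like networks, and collagen XIII spans the cell membrane. In lung, fibroblasts are a main source of most of these chains.

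Only Col12a1 and Col15a1 rose in apCAFs, by 3.23-fold and 2.34-fold. Neither call held once a replicate block was fitted under any of the 6 possible pairings of libraries. Those fits called 0 of all 36443 tested genes, so this loss is not particular to Col12a1 and Col15a1. The 3 collagen VI genes lay slightly higher in apCAFs without passing the test, and Col6a1 was the most abundant of the family per length. Col8a1 and Col18a1 had lower means in apCAFs, Col14a1 and Col16a1 had close means, and Col13a1 had a higher mean with overlapping groups. The fibrillar collagen gene Col1a1 was 3.08-fold higher in apCAFs. Relative to Col1a1, 8 of the 10 genes stood lower in every apCAFs library than in any nonapCAFs library, as did 68.9% of the other tested genes, so this count says little about the family.

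Values are the authors' normalized counts, rounded to whole numbers; sequencing depth is unknown. Differences were tested with limma on log2(value + 1) over the 36443 genes above 0 in at least 1 library, and called at a Benjamini-Hochberg adjusted p under 0.05. Of all tested genes, 3.91% were called higher and 0.486% lower in apCAFs, against 2 higher and 0 lower among the 10 collagen genes. Among the 17829 genes averaging 100 or more, which include all 10, 5.94% were called in either direction. In the authors' deposited table, whose p-values are from DESeq2, 3 of the 10 had an adjusted p under 0.05, all higher. The share of all genes under 0.05 there was not counted. This count and the deposited table's counts given for other lists below therefore have no background to be read against. The split of all calls was 1425 higher and 177 lower, but 1049 and 281 after quantile normalization.

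The MHC class II gene H2-Aa followed the labels, at 11556 to 22115 in apCAFs, against 187 to 252 in nonapCAFs. Genes gated alike in both groups still differed: Pdpn, which encodes the fibroblast surface protein podoplanin, was 6.65-fold higher in apCAFs (limma adjusted p = 0.0183), Pdgfra stood 2.86-fold higher without passing (limma adjusted p = 0.0855), and Epcam had 181, 209 and 21 in apCAFs, against 13, 3 and 5 in nonapCAFs. The fibroblast genes Col1a1, Col1a2 and Pdgfra were present in every library of both groups. apCAFs 3 stood apart from apCAFs 1 and 2, and nonapCAFs 6 from nonapCAFs 4 and 5. Over the 10 collagen genes the log2 ratio between libraries 1 and 2 had an SD of 0.10 and that between 4 and 5 an SD of 0.113, while the other pairs within a group gave 0.803 to 0.906. Values that move most when library 3 or 6 is left out are therefore given both ways.

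**Figure D1:**
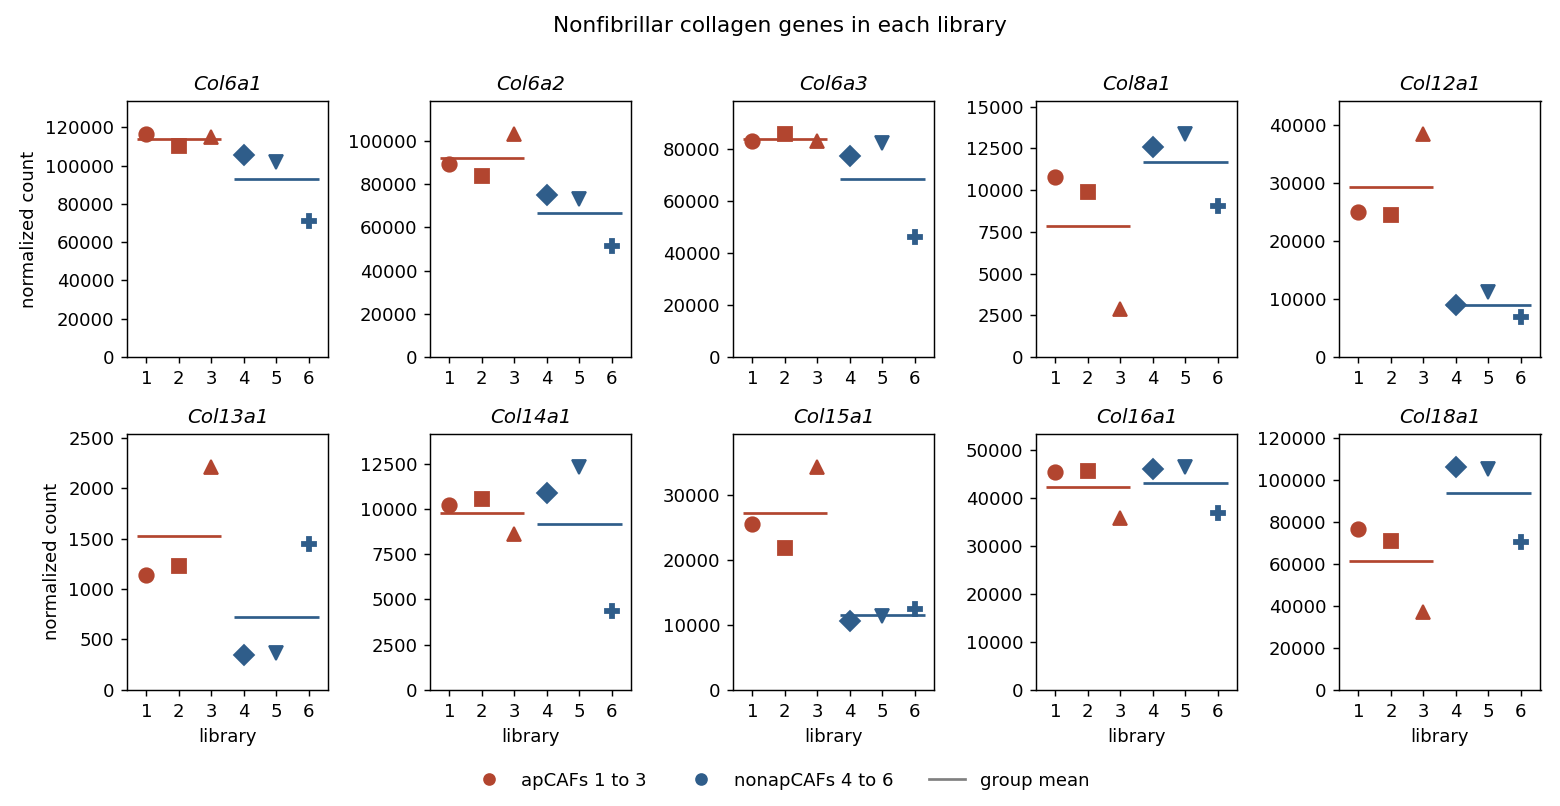
Normalized counts (vertical axes, each from 0) of the 10 genes in apCAFs 1 to 3 and nonapCAFs 4 to 6 (horizontal axes), with lines at the group means. Col12a1 and Col15a1 are higher in every apCAFs library than in any nonapCAFs library, and apCAFs 3 and nonapCAFs 6 often lie apart from the other libraries of their groups.

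The 3 collagen VI chains are made from separate genes and must meet in the endoplasmic reticulum to form a trimer. Col6a2 (chromosome 10, 76595762 to 76623630) and Col6a1 (chromosome 10, 76708792 to 76726168) lie on the minus strand 85.2 kb apart, and Col6a3 (chromosome 1, 90765923 to 90843971) lies elsewhere; coordinates are those of the deposited table, mm10. Because their levels moved nearly in step, the bases just before their starts are shown, with those of Col15a1 and Col18a1, related chains whose levels parted. The stretches are from RefSeq on GRCm38.p6, 5′ to 3′ on the gene's strand. Each holds the 250 bases before the RefSeq start, less any that lie inside the deposited table's gene. The Col15a1 stretch ends at 47208011, short of the deposited table's gene start at 47208161. Capitals mark matches on either strand to any of 4 motifs, none of which overlapped another here. One is the GC box, spelled GGGCGG. Another is the CCAAT box. The third searched for is the TATA box, spelled TATAAA. The last is the AP-1 site, spelled TGANTCA.
Col6a1, chr10:76726169-76726294, minus strand: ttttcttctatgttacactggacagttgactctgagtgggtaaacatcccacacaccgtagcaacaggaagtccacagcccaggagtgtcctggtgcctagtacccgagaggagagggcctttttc
Col6a2, chr10:76623631-76623880, minus strand: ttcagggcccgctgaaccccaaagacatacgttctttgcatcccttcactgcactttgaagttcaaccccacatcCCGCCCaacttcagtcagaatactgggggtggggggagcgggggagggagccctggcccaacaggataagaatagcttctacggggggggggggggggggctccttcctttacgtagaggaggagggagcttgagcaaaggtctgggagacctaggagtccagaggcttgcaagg
Col6a3, chr1:90843972-90844221, minus strand: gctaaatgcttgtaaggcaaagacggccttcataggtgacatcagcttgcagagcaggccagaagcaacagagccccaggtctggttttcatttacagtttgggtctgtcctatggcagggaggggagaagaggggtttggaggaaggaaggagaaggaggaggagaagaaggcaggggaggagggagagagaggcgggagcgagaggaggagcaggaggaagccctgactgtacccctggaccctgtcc
Col15a1, chr4:47207762-47208011, plus strand: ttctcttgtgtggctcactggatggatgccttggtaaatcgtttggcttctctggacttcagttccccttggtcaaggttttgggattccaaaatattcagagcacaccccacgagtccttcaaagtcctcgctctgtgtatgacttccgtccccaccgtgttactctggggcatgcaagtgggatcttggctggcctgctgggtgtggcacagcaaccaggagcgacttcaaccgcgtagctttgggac
Col18a1, chr10:77166549-77166780, minus strand: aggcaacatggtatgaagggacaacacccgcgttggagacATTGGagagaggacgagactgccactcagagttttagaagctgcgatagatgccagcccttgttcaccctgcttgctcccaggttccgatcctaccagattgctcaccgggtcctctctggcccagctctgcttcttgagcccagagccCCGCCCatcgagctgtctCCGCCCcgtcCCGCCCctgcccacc

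No motif searched was in all of these windows, and 2 of them held a GC box. The Col18a1 stretch held 3 GC boxes and 1 CCAAT box in 232 bases, and windows of that length held a GC box in 30.1% and a CCAAT box in 32.4% of the 32851 promoters in the RefSeq table. The Col6a2 stretch held 1 GC box in 250 bases, where 32.7% of promoters hold one. The stretches of Col6a1, Col6a3 and Col15a1 held none of the motifs searched, which says only that these letters are not in these windows. Of all promoters, 12.4% hold the TATA box and 6.75% the AP-1 site in 250 bases. In 126 bases, the length of the Col6a1 stretch, 13.5% hold a GC box and 16.9% a CCAAT box. The TATA box is in 6.26% and the AP-1 site in 3.24% of windows of that length. A RefSeq window was matched for 8 of the 10 genes; Col12a1 and Col14a1 are named only.

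Col6a1, the alpha 1 chain gene, had 116206, 110131 and 115119 normalized counts in apCAFs 1, 2 and 3, against 105257, 102045 and 70821 in nonapCAFs 4, 5 and 6. Col6a2, the alpha 2 chain gene, had 89175, 83637 and 102913 in apCAFs, against 74863, 73257 and 51521 in nonapCAFs. Col6a3, whose product ends in the fragment known as endotrophin, had 82995, 85455 and 83116 in apCAFs, against 77303, 82231 and 46087 in nonapCAFs. For each of these genes every apCAFs library lay above every nonapCAFs library, but nonapCAFs 4 and 5 came close to the apCAFs and nonapCAFs 6 was the lowest library. Counting Col12a1 and Col15a1, 5 of the 10 genes had all apCAFs libraries above all nonapCAFs libraries, as did 17.1% of all tested genes. None of the 10 lay below in all libraries, as 15.4% of tested genes did.

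The collagen VI differences did not pass. The log2 fold change was 0.32 for Col6a1 (95% interval -0.19 to 0.82), 0.48 for Col6a2 (-0.04 to 1.0) and 0.34 for Col6a3 (-0.32 to 0.99), with limma adjusted p of 0.426, 0.293 and 0.518. The intervals leave room for a doubling of Col6a2 as well as for no difference. Without apCAFs 3 and nonapCAFs 6 the log2 fold changes were 0.13, 0.22 and 0.08. In the authors' deposited table Col6a2 was the single chain gene of this trimer with an adjusted p under 0.05 (log2 0.47, DESeq2 adjusted p = 0.0408).

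The proportions of the chain messages to each other varied little. The log2 ratio of Col6a3 to Col6a1 was -0.44 ± 0.07 in apCAFs and -0.46 ± 0.16 in nonapCAFs (SD, n = 3 each; exact permutation test, two-sided p = 1.0). The log2 ratio of Col6a2 to Col6a1 was -0.31 ± 0.13 in apCAFs and -0.48 ± 0.02 in nonapCAFs (SD, n = 3 each; exact permutation test p = 0.10, adjusted p = 0.136). With 3 libraries against 3, the smallest p that this test can give is 0.10, and 15 ratios were compared. The Col6a2 share was thus 1.12-fold higher in apCAFs with groups that did not overlap, and apCAFs 3 was the highest library. Without apCAFs 3 the log2 difference was 0.087, against 0.16 with it. Together the 3 genes held 59.7%, 60.2% and 65.4% of the summed counts of the 10 genes in apCAFs, against 56.8%, 56.3% and 54.3% in nonapCAFs.

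The 3 other collagen VI chain genes stood well below Col6a1, Col6a2 and Col6a3 and are named after their values were seen. Col6a5 had 579, 698 and 5504 normalized counts in apCAFs, against 33, 43 and 384 in nonapCAFs. Col6a6 had 216, 175 and 1554 in apCAFs, against 60, 72 and 152 in nonapCAFs. Both encode chains that can take the place of alpha 3, and both were highest in apCAFs 3 by a wide margin. Col6a4 had 14, 9 and 78 in apCAFs, against 24, 13 and 22 in nonapCAFs, with overlap (log2 0.19, SE 0.83). Neither Col6a5 nor Col6a6 passed in limma, with log2 fold changes of 3.97 (SE 1.32, limma adjusted p = 0.196) and 2.15 (SE 0.94, limma adjusted p = 0.296). The authors' deposited table gives Col6a6 log2 2.76 with a DESeq2 adjusted p of 0.00316, while Col6a5 was not under 0.05 there.

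Col12a1 (chromosome 9, 79598991 to 79718831, minus strand) encodes the chain of collagen XII, a homotrimer that links collagen I fibres to the surrounding matrix and is known as a tension-responsive product of activated fibroblasts. It had 25046, 24544 and 38325 normalized counts in apCAFs 1, 2 and 3, against 8915, 11242 and 6989 in nonapCAFs 4, 5 and 6. The lowest apCAFs library was more than double the highest nonapCAFs library, and apCAFs 3 was the highest. Its log2 fold change was 1.69 (SE 0.28, limma adjusted p = 0.0382), and the authors' deposited table gives log2 1.70 with a DESeq2 adjusted p of 3.28e-10. The gene stayed between 1.31 and 1.88 in every alternative run, while its limma adjusted p ranged from 0.00318 to 0.239. Leaving out any single library ended the call, with that p between 0.0567 and 0.129, and a replicate block gave 0.116 to 0.155 over the possible pairings. The log2 fold change was 1.31 without apCAFs 3 and nonapCAFs 6 and 2.45 between that pair of libraries alone.

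Col14a1 (chromosome 15, 55307750 to 55520803, plus strand) encodes collagen XIV, the closest relative of collagen XII in the fibril-associated group and a known product of adventitial fibroblasts. It had 10221, 10526 and 8612 normalized counts in apCAFs, against 10894, 12298 and 4356 in nonapCAFs. The groups overlapped, and nonapCAFs 6 was far below the other nonapCAFs libraries. Its log2 fold change was 0.22 (95% interval -0.87 to 1.32, limma adjusted p = 0.772), and without nonapCAFs 6 it was -0.25. The log2 ratio of Col14a1 to Col12a1 was -1.29, -1.22 and -2.15 in apCAFs, against 0.29, 0.13 and -0.68 in nonapCAFs. Col14a1 message thus stood at 0.340 times Col12a1 in apCAFs and near parity, 0.941 times, in nonapCAFs, with no overlap between groups (exact permutation test p = 0.10, the smallest possible, adjusted p = 0.136).

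Col16a1 (chromosome 4, 130047840 to 130099283, plus strand) encodes collagen XVI, another fibril-associated chain that also lies near cell surfaces. It had 45466, 45631 and 35786 normalized counts in apCAFs, against 46114, 46439 and 36946 in nonapCAFs. Each apCAFs library had a near equal among the nonapCAFs, and libraries 3 and 6 were the low ones. The log2 fold change was -0.03 (95% interval -0.49 to 0.43, limma adjusted p = 0.929), the narrowest interval of the 10, and its sign changed when apCAFs 3, nonapCAFs 4 or nonapCAFs 5 was left out.

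**Figure D2:**
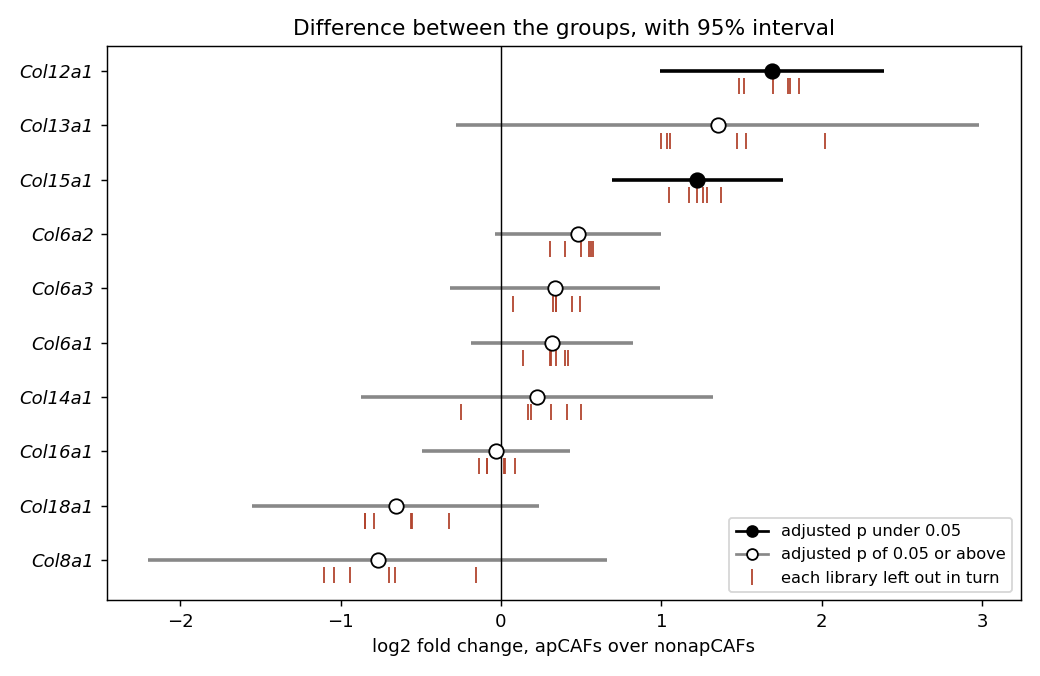
Log2 fold change of apCAFs over nonapCAFs (horizontal axis) for each gene, with limma's 95% interval (lines), filled points for an adjusted p under 0.05, and ticks for the value with each library left out in turn. Col12a1 at 1.69 and Col15a1 at 1.23 are the filled points, and the interval of every other gene includes 0.

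Collagens XV and XVIII are sister molecules whose C-terminal ends can be released as restin and endostatin, fragments known for effects on blood vessel growth. Col15a1 (chromosome 4, 47208161 to 47313167, plus strand) had 25653, 21941 and 34346 normalized counts in apCAFs 1, 2 and 3, against 10648, 11428 and 12448 in nonapCAFs 4, 5 and 6. The groups were well apart, and the nonapCAFs values lay close together. The log2 fold change was 1.23 (SE 0.21, limma adjusted p = 0.0434), and the authors' deposited table gives log2 1.25 with a DESeq2 adjusted p of 1.93e-09. The log2 fold change ranged from 1.05 to 1.37 over all alternatives and the limma adjusted p from 0.00372 to 0.278. The gene was still called without apCAFs 3 (limma adjusted p = 0.0365) but not without any other single library. Without apCAFs 3 and nonapCAFs 6 it lay at 1.10 (limma adjusted p = 0.0516), and a replicate block gave a limma adjusted p of 0.0819 to 0.197 over the possible pairings. The antisense gene Gm12426 shares 14 exon bases with Col15a1, or 0.221% of its exon length, and had 108 to 452 normalized counts; whether counting used strand is not given in the sources used here.

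Col18a1 (chromosome 10, 77052178 to 77166548, minus strand, 326.0 kb from Col6a1) had 76732, 70878 and 37032 normalized counts in apCAFs, against 105976, 105072 and 70620 in nonapCAFs. The means were lower in apCAFs, but nonapCAFs 6 lay at the level of apCAFs 1 and 2, so the groups overlapped. The log2 fold change was -0.66 (95% interval -1.55 to 0.24, limma adjusted p = 0.356), and it was below 0 in all 24 alternatives, from -0.85 to -0.32, with -0.52 when apCAFs 3 and nonapCAFs 6 were left out. The log2 ratio of Col15a1 to Col18a1 was -1.58, -1.69 and -0.11 in apCAFs, against -3.32, -3.20 and -2.50 in nonapCAFs. Col15a1 thus stood at 0.458 times Col18a1 in apCAFs and at 0.124 times in nonapCAFs, a 3.68-fold difference with no overlap (exact permutation test p = 0.10, the smallest possible, adjusted p = 0.136). apCAFs 3, in which the messages were nearly equal, and nonapCAFs 6 were each the highest library of their group for this ratio.

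**Figure D3:**
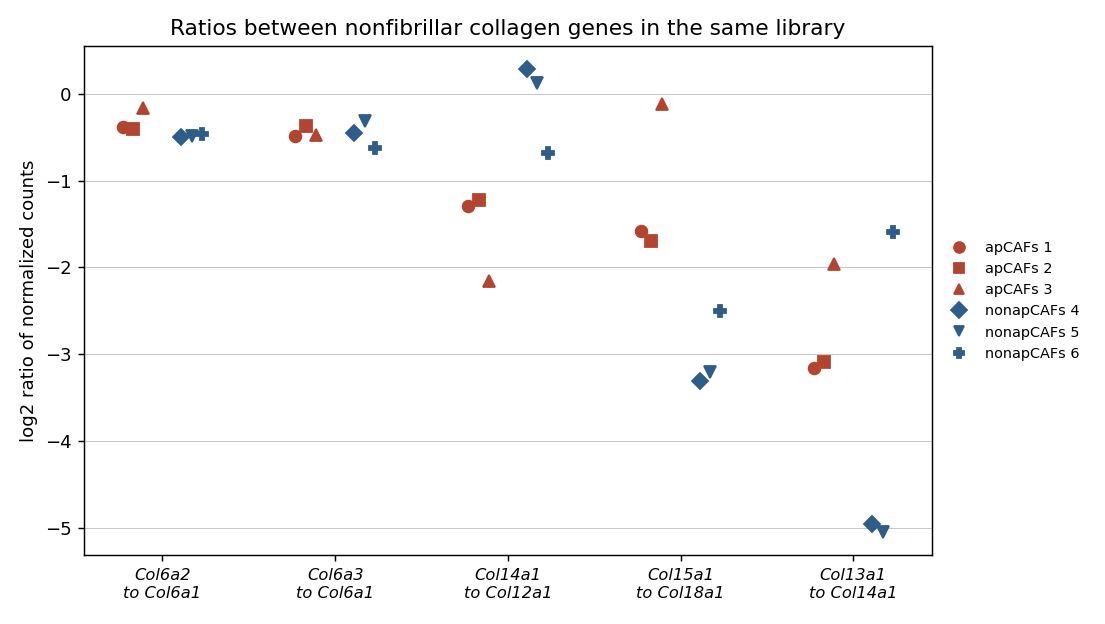
Log2 ratios of normalized counts (vertical axis) between genes of the family in the same library, for 5 pairs of genes (horizontal axis), with the apCAFs libraries left of the nonapCAFs libraries. Ratios within collagen VI stay between -0.16 and -0.62, while Col14a1 to Col12a1 is lower and Col15a1 to Col18a1 higher in every apCAFs library than in any nonapCAFs library.

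Col8a1 (chromosome 16, 57624258 to 57754737, minus strand) encodes a short chain of the network-forming collagen VIII, known from vessel walls and from remodelled tissue. It had 10796, 9905 and 2887 normalized counts in apCAFs, against 12595, 13341 and 9046 in nonapCAFs. apCAFs 3 was far below every other library, and apCAFs 1 and 2 overlapped the range of the nonapCAFs. Its log2 fold change was -0.77 (95% interval -2.20 to 0.66, limma adjusted p = 0.506), and it was -0.15 without apCAFs 3. Its partner gene Col8a2, also named after its values were seen, had 319, 346 and 775 in apCAFs, against 174, 151 and 234 in nonapCAFs. It did not pass in limma (log2 1.26, limma adjusted p = 0.184), while the authors' deposited table gives log2 1.36 with a DESeq2 adjusted p of 0.0058. In apCAFs 3 the pair thus stood at opposite ends, with Col8a1 the lowest and Col8a2 the highest of the 6 libraries.

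Col13a1 (chromosome 10, 61838236 to 61979108, minus strand) encodes a membrane-spanning collagen and is a known marker of alveolar fibroblasts in mouse lung. It was the least abundant of the 10, with 1140, 1231 and 2207 normalized counts in apCAFs, against 349, 369 and 1442 in nonapCAFs. nonapCAFs 4 and 5 lay far below the apCAFs, while nonapCAFs 6 lay above apCAFs 1 and 2. Its log2 fold change was 1.35 (SE 0.65, limma adjusted p = 0.311). The log2 ratio of Col13a1 to Col14a1, a marker of adventitial fibroblasts, was -3.16, -3.10 and -1.96 in apCAFs, against -4.96, -5.06 and -1.59 in nonapCAFs, with the highest value in nonapCAFs 6. The difference was 1.13 (exact permutation test p = 0.40), and without nonapCAFs 6 it was 2.27 (exact permutation test p = 0.10, the smallest possible). Without apCAFs 3 and nonapCAFs 6 the log2 fold change of Col13a1 was 1.72 (limma adjusted p = 0.0193), against 0.0193 to 0.614 over all alternatives.

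Several other alveolar fibroblast markers also set nonapCAFs 6 apart, but Gpc3 and Plin2 did not. The summed level of 9 such markers was 36599, 38093 and 52613 in apCAFs, against 17269, 16393 and 44833 in nonapCAFs, and none of the 9 was at 0 in all libraries. Inmt, a methyltransferase gene on that list, had 1422, 1613 and 4248 in apCAFs, against 1113, 974 and 19446 in nonapCAFs. Limch1, also on the list, had a profile over the 6 libraries closest to that of Col13a1 among the 12878 named genes averaging 100 or more (root mean square difference 0.118 on the centred log2 scale). Its values were 3001, 3173 and 5258 in apCAFs, against 1085, 984 and 4075 in nonapCAFs. Gpc3 had 1710, 1729 and 1688 in nonapCAFs 4, 5 and 6, and Plin2 had 9449, 9050 and 8367. Of this list only Gpc3 was called, 7.09-fold higher in apCAFs (limma adjusted p = 0.00643). Whether the makeup of the sorted cells set the Col13a1 level was not tested; in bulk libraries fewer cells of a type and less RNA per cell cannot be told apart.

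Per kilobase of exon annotated in GENCODE M21, Col6a1 was the highest of the family in every library, at 25990 ± 740 normalized counts per kb in apCAFs and 21170 ± 4343 in nonapCAFs (SD, n = 3 each). In apCAFs it was followed by Col6a2 (11040 per kb), Col18a1 (8766), Col6a3 (7010), Col16a1 (6266), Col15a1 (4302), Col12a1 (1924), Col14a1 (1395), Col8a1 (1004) and Col13a1 (331). In nonapCAFs the order of mean levels per kb was Col6a1, Col18a1 (13370), Col6a2 (7993), Col16a1 (6395), Col6a3 (5729), Col15a1 (1813), Col8a1 (1489), Col14a1 (1309), Col12a1 (594) and Col13a1 (156). Col12a1 was thus 7th in apCAFs and 9th in nonapCAFs, and Col18a1 was 3rd in apCAFs and 2nd in nonapCAFs.

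Several neighbours in these orders had overlapping ranges over the libraries. In apCAFs the library ranges overlapped between Col6a2 and Col18a1, Col18a1 and Col6a3, Col16a1 and Col15a1, Col14a1 and Col8a1, and Col8a1 and Col13a1. In nonapCAFs they overlapped between Col6a2 and Col16a1, Col16a1 and Col6a3, Col15a1 and Col8a1, Col8a1 and Col14a1, and Col14a1 and Col12a1. Some of these pairs still kept their order within each of the 3 libraries. In apCAFs this was Col14a1 over Col8a1. In nonapCAFs it was Col6a2 over Col16a1, Col16a1 over Col6a3, Col15a1 over Col8a1, and Col14a1 over Col12a1. Exon lengths ran from 4.38 kb for Col6a1 to 15.23 kb for Col12a1 and count every annotated transcript, so a gene read mainly from short transcripts is understated.

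**Figure D4:**
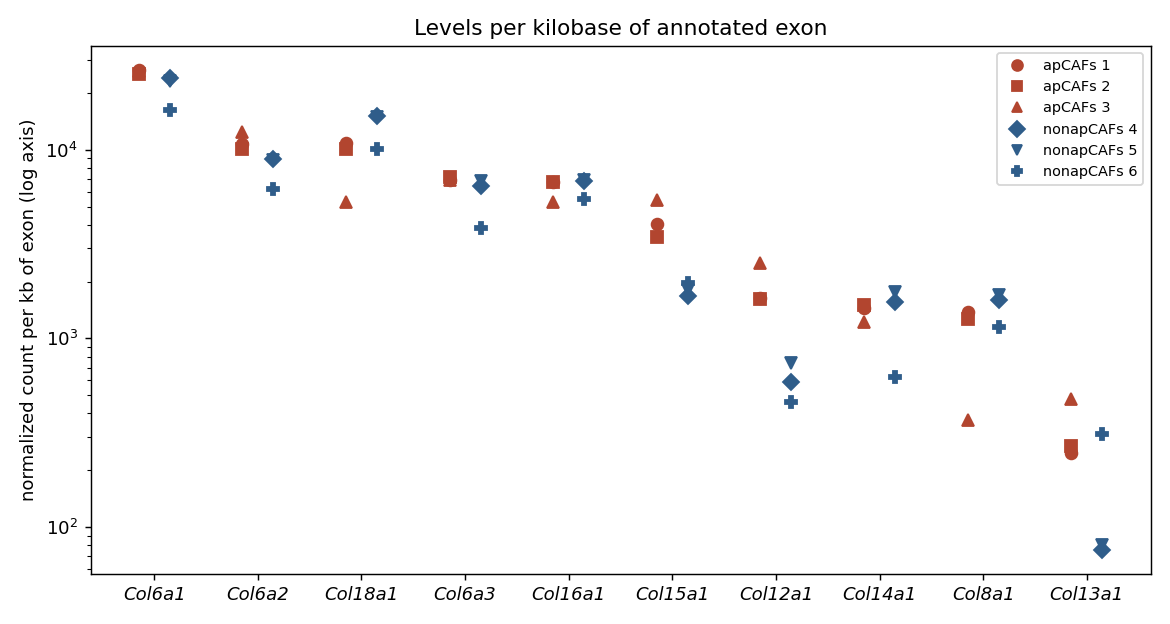
Normalized counts per kb of annotated exon (vertical axis, log scale) for the 10 genes (horizontal axis, ordered by their mean in apCAFs), 1 point per library, apCAFs left of nonapCAFs. Col6a1 is highest in each library and Col13a1 has the lowest mean in each group.

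Each gene was also set against Col1a1, the main chain gene of fibrillar collagen I. The log2 ratio to Col1a1 in the same library does not depend on scaling between libraries. It was lower in every apCAFs library than in any nonapCAFs library for 8 of the 10 genes: the 3 collagen VI genes, Col8a1, Col14a1, Col15a1, Col16a1 and Col18a1. The same held for 88.8% of the other genes averaging 100 or more, whose median log2 difference was -1.67, so a lower ratio to Col1a1 was the common case. Col18a1 stood at 0.0579 times Col1a1 in apCAFs and 0.281 times in nonapCAFs, and Col6a1 at 0.112 times in apCAFs and 0.278 times in nonapCAFs. For each of the 8 genes the exact permutation test gave p = 0.10, the smallest possible, and an adjusted p of 0.136.

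Col12a1 kept close to Col1a1. Its log2 ratio to Col1a1 was -5.13, -5.14 and -5.16 in apCAFs, against -5.16, -4.99 and -5.48 in nonapCAFs, with overlap (exact permutation test p = 0.70). The ratio was nearly the same in all 3 apCAFs libraries, although Col12a1 itself was clearly higher in apCAFs 3. Col15a1 stood at 0.0265 times Col1a1 in apCAFs and 0.035 times in nonapCAFs. Col13a1 overlapped, with log2 ratios of -9.59, -9.45 and -9.27 in apCAFs, against -9.83, -9.91 and -7.75 in nonapCAFs. Its apCAFs values thus lay above nonapCAFs 4 and 5 and below nonapCAFs 6. Summed over the family, the 10 genes stood at 0.161, 0.156 and 0.106 times the 11 fibrillar collagen genes in apCAFs, against 0.314, 0.297 and 0.250 times in nonapCAFs. Over all counts their share was 0.493% to 0.538% in apCAFs and 0.398% to 0.547% in nonapCAFs.

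**Figure D5:**
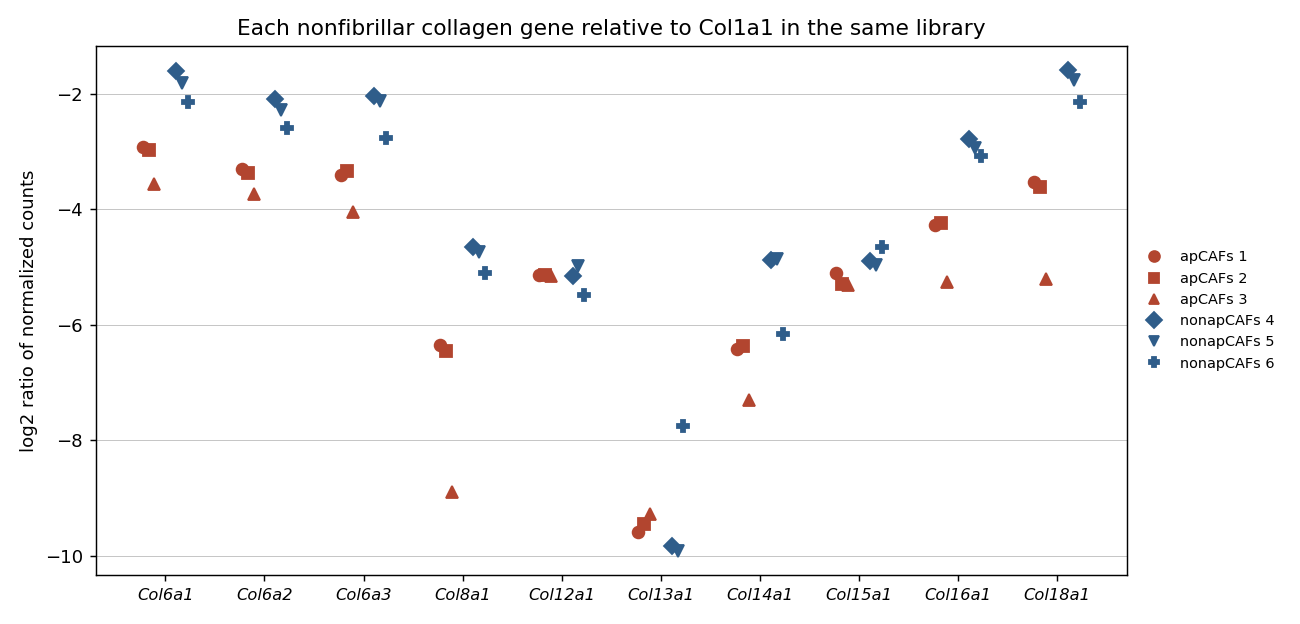
Log2 ratio of each gene's normalized count to that of Col1a1 in the same library (vertical axis) for the 10 genes (horizontal axis), apCAFs left of nonapCAFs. For 8 genes the ratio lies lower in every apCAFs library, while Col12a1 overlaps, at -5.13 to -5.16 in apCAFs and -4.99 to -5.48 in nonapCAFs. Col13a1 overlaps too, with nonapCAFs 6 above and nonapCAFs 4 and 5 below its apCAFs values.

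The profiles of the family over the 6 libraries were compared by their distance. The nearest member to Col6a1 was Col6a3 and the reverse (root mean square difference 0.0973 on the centred log2 scale), and the nearest to Col6a2 was Col6a1 (0.112). Col8a1 and Col18a1 were nearest to each other (0.29), as were Col12a1 and Col15a1 (0.341), both farther apart than Col6a2 and Col6a3 (0.155), the widest pair within collagen VI. Col14a1 was nearest to Col6a3 (0.231) and Col16a1 to Col6a1 (0.229), while Col13a1 stood farthest from the rest, with Col15a1 nearest at 0.632. Over all genes searched, the nearest to Col12a1 were Bmp2, a growth factor gene (0.0794), and Arsb, a lysosomal sulfatase gene (0.0806). Those nearest to Col15a1 were Optn (0.071) and Sspn (0.074), those nearest to Col6a1 were Foxs1 (0.0275) and Pdia4 (0.0365), and those nearest to Col18a1 were Tln2 (0.0389) and Mcm10 (0.0481). With 6 libraries and 12878 genes searched, these are descriptions.

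Libraries 3 and 6 left the rest of their groups in the same direction for many genes, in this family and beyond it. apCAFs 3 against the mean of apCAFs 1 and 2, and nonapCAFs 6 against the mean of nonapCAFs 4 and 5, had the same sign for 7 of the 10, as for 65.1% of genes averaging 100 or more. Col18a1 was lower in both (log2 -0.99 in apCAFs 3 and -0.58 in nonapCAFs 6) and Col13a1 higher in both (0.90 in apCAFs 3 and 2.0 in nonapCAFs 6). Col12a1 moved apart, higher in apCAFs 3 by 0.63 and at -0.52 in nonapCAFs 6. The labels do not say which libraries share an experiment, so a shared origin was not tested.

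Markers of some other cell types moved with the groups. The 9 mesothelial markers summed to 40331 to 51979 in apCAFs, against 5277 to 6001 in nonapCAFs, and 7 of the 9 were called higher. The 11 pericyte and smooth muscle markers summed to 53769 to 55027 in apCAFs, against 12524 to 17494 in nonapCAFs, and 5 were called higher. Rgs5 of this list had a lower mean in apCAFs (log2 -1.63) with overlapping groups, and Mcam overlapped too (log2 0.36). The 10 alveolar type II markers summed to 103935, 86568 and 12592 in apCAFs and to 13818 to 15458 in nonapCAFs, and the 9 epithelial markers to 11734 to 18523 in apCAFs and 7305 to 10545 in nonapCAFs. In nonapCAFs Lamp3, Abca3, Etv5 and Lpcat1 made up most of the type II sum. Krt8 and Krt18, whose groups overlapped, made up most of the epithelial sum there. Krt19 (20.4-fold) and Cldn3 (44.4-fold) were called higher in apCAFs. Krt7 (17.1-fold), Cdh1 (24.1-fold), Epcam (13.6-fold) and Cldn4 (9.21-fold) were higher without passing, and Cldn7 overlapped. The 7 alveolar type I markers summed to 24589 to 32111 in apCAFs, against 33161 to 35408 in nonapCAFs, although 3 of them were called higher. Cav1 made up most of this sum, at 18788 to 26593 in apCAFs and 29473 to 33216 in nonapCAFs. The called ones were Aqp5 (22.9-fold), Clic5 (18.9-fold) and Akap5 (4.67-fold). Ager was 4.8-fold higher without passing, and Hopx and Rtkn2 had lower means in apCAFs. No marker of these lists was at 0 in all libraries. Adventitial fibroblast markers summed to 117009 to 216070 in apCAFs, against 63879 to 74873 in nonapCAFs, with 2 of 8 called higher. Dcn was the largest part of this sum, at 54254 to 129892 in apCAFs and 26981 to 39292 in nonapCAFs. Pi16 went the other way with overlap, at 4477, 4151 and 4123 in apCAFs, against 10373, 11152 and 4308 in nonapCAFs. Proliferation markers summed to 67413, 69301 and 33607 in apCAFs, against 76724, 81273 and 67249 in nonapCAFs, and like Col18a1 were lowest in apCAFs 3. The type II sum was the lowest of the 6 libraries in apCAFs 3, but not for each marker. Lamp3 was lowest there, at 800, while Sftpc had 226 there, against 185, 185 and 124 in nonapCAFs 4, 5 and 6. Col12a1 and Col15a1 were highest in apCAFs 3. The part of the cells behind the mesothelial, pericyte and type II markers in the Col12a1 and Col15a1 differences was not tested. Endothelial markers summed to 966 to 1512 in apCAFs and 1248 to 1458 in nonapCAFs, and leukocyte markers to 1725 to 3194 in apCAFs and 1072 to 1378 in nonapCAFs. Csf1r made up most of the leukocyte sum, at 1316 to 2478 in apCAFs and 872 to 912 in nonapCAFs.

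The other collagens were counted by class. Of 11 fibrillar collagen genes 4 rose and 0 fell in limma, and 8 were higher in the authors' deposited table. Their median log2 fold change was 1.62, that of the 10 nonfibrillar genes 0.33 and that of all tested genes -0.04. The called ones were Col5a2 (3.77-fold), Col11a1 (3.54-fold), Col1a2 (3.51-fold) and Col1a1 (3.08-fold, limma adjusted p = 0.0273). Of the 6 genes of collagen IV, the network of basement membranes, 4 rose, with a median of 1.54 (6 in the authors' deposited table): Col4a6 (7.77-fold), Col4a2 (1.85-fold), Col4a4 (3.65-fold) and Col4a5 (2.32-fold). Of all 36443 tested genes, 4764 higher and 2257 lower had an unadjusted limma p under 0.05. The other nonfibrillar collagens gave no calls in limma among 16 tested genes (4 at an unadjusted p under 0.05 and 4 in the authors' deposited table, all higher). Their most abundant members were Col7a1, which anchors epithelial basement membranes (13976 ± 4430 in apCAFs and 21656 ± 5175 in nonapCAFs, SD, n = 3 each), and Col23a1, a membrane-spanning collagen (2631 ± 457 in apCAFs and 1986 ± 146 in nonapCAFs). Col7a1, like Col18a1, had a lower mean in apCAFs with overlapping groups. Over all 7 companion lists, those below included, 17 genes were called, but 1 or 2 when any single library other than apCAFs 3 was left out and 19 without apCAFs 3.

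Of 12 genes for collagen receptors 1 rose and 0 fell in limma, while the authors' deposited table has 6 higher and 1 lower at an adjusted p under 0.05. The 1 called by limma was Antxr1, whose product binds collagen VI, with 15573, 15677 and 25356 in apCAFs, against 7142, 7203 and 6589 in nonapCAFs (2.63-fold, limma adjusted p = 0.0421). Its relative Antxr2, named after its values were seen, had 8706, 8682 and 5486 in apCAFs, against 12931, 12644 and 12485 in nonapCAFs, lower in every apCAFs library without passing (log2 -0.77, limma adjusted p = 0.154). Itgb1, the shared beta chain of collagen-binding integrins, and Ddr2, a collagen-sensing kinase, were the most abundant, at 68844 ± 5708 and 25244 ± 4377 in apCAFs, against 65150 ± 5367 and 29924 ± 2287 in nonapCAFs (SD, n = 3 each).

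The machinery that folds and secretes collagen gave no calls in limma among 16 genes (6 at an unadjusted p under 0.05, all higher; 9 higher in the authors' deposited table), with a median log2 fold change of 0.33. Serpinh1, the collagen chaperone HSP47, had 176125, 170920 and 210893 in apCAFs, against 130981, 126215 and 93518 in nonapCAFs (log2 0.68, limma adjusted p = 0.148). P4hb, a subunit of prolyl hydroxylase, was at 105221 ± 10840 in apCAFs and 72714 ± 8406 in nonapCAFs (SD, n = 3 each). All apCAFs libraries lay above all nonapCAFs libraries for both genes.

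Of 15 matrix partners of these collagens 5 rose and 0 fell in limma (median log2 1.26), while the authors' deposited table has 10 higher and 2 lower at an adjusted p under 0.05. Named by smallest p, 4 of them were Bgn, a proteoglycan that binds collagen VI (2.79-fold), Sparc, a collagen-binding glycoprotein (3.07-fold), Nid2, a basement membrane linker (5.73-fold), and Fbln1, a fibulin (2.72-fold). The 2 lower ones, named after their values were seen, were Lum, a small proteoglycan of collagen fibres (log2 -0.89, limma adjusted p = 0.0952), and Matn2, a matrilin (log2 -0.56, limma adjusted p = 0.15), both below in every apCAFs library without passing. Of 14 genes for proteases and helpers that trim procollagens 3 rose and 0 fell in limma (median log2 0.02), while the authors' deposited table has 5 higher and 1 lower at an adjusted p under 0.05. These were Tll1, a tolloid protease (936 ± 274 in apCAFs and 79.3 ± 18.7 in nonapCAFs, SD, n = 3 each, 11.6-fold, limma adjusted p = 0.0119), Adamts2 (2.82-fold) and Adamts3 (3.95-fold), both procollagen N-proteinases. The third N-proteinase gene, Adamts14, named after its values were seen, had 8540, 8242 and 8683 in apCAFs, against 12496, 12247 and 12985 in nonapCAFs. It was lower in every apCAFs library without passing (log2 -0.57, limma adjusted p = 0.0751), and the authors' deposited table gives it a DESeq2 adjusted p of 9.57e-13.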

How the data were processed

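RNA was sequenced from 6 sorted libraries. The mm10 build and the tools Trim Galore, Bowtie2 and DESeq2 appear in the submitters' processing notes, with no roles or versions; no source used here names the counter, the annotation or the strand setting. Per the file headers, the deposited per-library values are counts after the authors' normalization, rounded to whole numbers, and are treated here as a score. Their totals, 77960347 to 93330791, are not depths. The table of the whole series, per the file headers, adds the authors' p-value, fold change as a ratio, log2 fold change and each gene's percent GC. Its ratio and percent columns were not used.

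With limma 3.58.1 (R 4.3.3), log2(value + 1) was modelled by group alone for the 36443 genes that exceeded 0 somewhere. P-values were two-sided, adjusted by Benjamini-Hochberg over all tested genes and called at 0.05; intervals are 95% and SE is limma's. No counting interval is given because depth is unknown. Fold changes on this scale understate changes of low genes. Ratios between genes were compared by exact permutation over libraries. Exon lengths are from GENCODE M21 (GRCm38), which holds 55117 of the 55298 gene identifiers; promoter stretches are from RefSeq.

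The members and lists were chosen with earlier results of these data known. Companion lists give up to 4 called genes by smallest p, or the 2 most abundant where fewer than 2 were called; Wisp2 was matched to Ccn5 as its older symbol. The labels pair no libraries, so no experiment term entered the fit. Alternatives covered the pseudocount, low-value filters, scaling, the variance model, leaving out libraries, averaging close pairs and an experiment term.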

Additional observations from a re-analysis of the deposited data

How the results depend on the processing

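Of the 10 genes, 2 were called in the reported limma fit and in 6 of 24 alternatives. The number was 1 with library totals, quantile normalization, median centring, and without apCAFs 3 and nonapCAFs 6. It was 0 without a filter, with close pairs averaged and with a replicate block, where 2 to 4 had an unadjusted p under 0.05. Leaving out 1 library gave 0 to 1. All genes called numbered 1602, against 2748 when only genes averaging 100 or more were tested, 3453 with a variance trend, 2489 without apCAFs 3 and nonapCAFs 6, 436 without a filter and 310 to 1791 with 1 library left out. With close pairs averaged limma gave 0, while 3424 higher and 1282 lower genes had an unadjusted p under 0.05. The 17 calls in the companion lists became 38 with the filter at 100, 40 with a variance trend, 28 without apCAFs 3 and nonapCAFs 6, 2 without a filter, 0 with close pairs averaged, 10 with quantile normalization, 11 with library totals or median centring, and 1 to 19 with 1 library left out.

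Col12a1 lost its call at log2 1.69 without a filter, at 1.88 with close pairs averaged, at 1.31 without apCAFs 3 and nonapCAFs 6, and at 1.48 to 1.86 with 1 library left out. Col15a1 lost it at 1.23 without a filter, 1.07 with library totals, 1.13 with quantile normalization or median centring, 1.28 with close pairs averaged and 1.10 without apCAFs 3 and nonapCAFs 6, and ranged from 1.05 to 1.37 with 1 library left out. Col13a1 gained a call at 1.72 without apCAFs 3 and nonapCAFs 6. Averaging pairs or leaving out libraries means fewer libraries in the fit; otherwise the cause was not tested.

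The design text says that both populations were isolated together, but nothing pairs the libraries, so a replicate block was fitted under each of the 6 possible pairings. In limma every pairing gave 0 calls over all genes, over the companion lists and over the 10 genes, with Col12a1 still at 1.69 and Col15a1 at 1.23. Over the pairings 3949 to 4786 higher and 1319 to 1894 lower genes had an unadjusted p under 0.05.

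Signs changed for Col16a1 without apCAFs 3 (0.085), nonapCAFs 4 (0.02) or nonapCAFs 5 (0.03), within -0.14 to 0.085 over the single libraries left out. They changed for Col14a1 without nonapCAFs 6 (-0.25) or without apCAFs 3 and nonapCAFs 6 (-0.16), within -0.25 to 0.50. The difference in the log2 ratio of Col6a3 to Col6a1, 0.018, became -0.019 without apCAFs 2 and -0.062 without nonapCAFs 6, within -0.062 to 0.092. Without nonapCAFs 6, that of Col12a1 to Col1a1, 0.066, became -0.068 (range -0.068 to 0.18), and that of Col13a1 to Col1a1, -0.27, became 0.43 (range -0.65 to 0.43). No log2 fold change of the 10 genes changed sign under another scaling. The median of all genes was -0.04, -0.18 with library totals, -0.19 with quantile normalization and -0.14 with median centring; relative to it Col12a1 lay between 1.72 and 1.81 and Col15a1 between 1.26 and 1.32 under every scaling, while Col16a1 lay between -0.01 and 0.01.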
